A study of Mus musculus with 4 samples.

Results

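Evx2 and the 6 neighbouring HoxD genes Hoxd13, Hoxd12, Hoxd11, Hoxd10, Hoxd9 and Hoxd8 form the posterior end of the HoxD cluster on mouse chromosome 2. These 7 genes, of 16857 in the table, were selected by name on their measured values in G2 against G0, so that difference is described below and not tested. All 7 had a row. Expression came from bulk RNA sequencing of 4 mouse adenoma colonoid lines, epithelial structures grown in culture from colon adenomas, with 1 library per line. The G0 libraries, replicates 1 and 2, are lines 75 and 179 with the genotype Apcnull/LSL-mTERT-het. The G2 libraries, replicates 1 and 2, are lines 157 and 236 with the genotype Apcnull/LSL-mTERT-homo. All 4 lines are named Apcmin, an allele of the tumour suppressor gene Apc, so the loss of Apc is shared by both groups. LSL-mTERT is an allele of Tert, the catalytic subunit of telomerase. The labels do not spell out G0 and G2. The series sets out to compare Apcmin colonoids with low and with high chromosomal instability, and no label says which line belongs to which class. Each group holds 2 lines, so a difference between groups is also a difference between these particular lines.

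Hox genes encode homeodomain transcription factors that give cells their position along the body axis. They lie in clusters in which gene order follows the order of use, from anterior (low numbers) to posterior (high numbers). The posterior HoxD genes pattern the end of the trunk, the digits and the external genitalia, and group 13 genes are known for their part in the hindgut and anorectal region. Evx2, a homeobox gene of the even-skipped family, is transcribed away from Hoxd13 and shares distant enhancers with it. Where these genes are not in use, Polycomb complexes are known to keep them silent.

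On GRCm38.p6 (mm10) the RefSeq annotation places the 7 genes within 54945 bases of chromosome 2. Evx2 lies at chr2:74652989-74661520 on the minus strand. The Hox genes follow on the plus strand, with Hoxd13 at chr2:74668225-74671603, Hoxd12 at chr2:74675013-74677705, Hoxd11 at chr2:74679558-74687016, Hoxd10 at chr2:74684273-74695106, Hoxd9 at chr2:74697763-74700208 and Hoxd8 at chr2:74704615-74707933. Evx2 and Hoxd13 are separated by 6704 bases, while the annotated spans of Hoxd11 and Hoxd10 overlap by 2744 bases. The 250 bases upstream of the RefSeq start (GRCm38.p6, 5′ to 3′ on the gene's strand) are shown for the pair of genes with similar levels in both G2 lines, Evx2 and Hoxd13, and for the pair with the lowest levels, Hoxd12 and Hoxd8. Capitals mark short motifs searched on both strands: the letters CAATAAA (a core bound by group 13 Hox proteins), TATAAA (the TATA box), CCAAT (the CCAAT box), CTTTGAA or CTTTGAT (TCF/LEF, the factors of Wnt signalling) and TGACAG (the TALE factors of the Meis type). The motifs were chosen with these promoters in view.
Evx2, chr2:74659558-74659807, minus strand: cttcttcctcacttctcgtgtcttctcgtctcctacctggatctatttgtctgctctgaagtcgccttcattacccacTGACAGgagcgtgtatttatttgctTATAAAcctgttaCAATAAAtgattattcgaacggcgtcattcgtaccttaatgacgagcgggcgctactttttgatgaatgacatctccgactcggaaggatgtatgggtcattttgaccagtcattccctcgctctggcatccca
Hoxd13, chr2:74667975-74668224, plus strand: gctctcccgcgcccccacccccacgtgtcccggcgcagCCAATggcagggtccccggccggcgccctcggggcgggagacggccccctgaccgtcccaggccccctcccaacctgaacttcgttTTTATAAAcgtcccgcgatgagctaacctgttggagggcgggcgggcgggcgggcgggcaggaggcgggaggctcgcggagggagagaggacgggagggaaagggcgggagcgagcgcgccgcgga
Hoxd12, chr2:74674763-74675012, plus strand: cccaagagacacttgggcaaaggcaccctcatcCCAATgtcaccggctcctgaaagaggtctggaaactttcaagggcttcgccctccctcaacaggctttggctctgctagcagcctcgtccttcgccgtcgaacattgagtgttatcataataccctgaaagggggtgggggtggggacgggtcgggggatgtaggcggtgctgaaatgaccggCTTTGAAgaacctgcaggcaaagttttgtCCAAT
Hoxd8, chr2:74704365-74704614, plus strand: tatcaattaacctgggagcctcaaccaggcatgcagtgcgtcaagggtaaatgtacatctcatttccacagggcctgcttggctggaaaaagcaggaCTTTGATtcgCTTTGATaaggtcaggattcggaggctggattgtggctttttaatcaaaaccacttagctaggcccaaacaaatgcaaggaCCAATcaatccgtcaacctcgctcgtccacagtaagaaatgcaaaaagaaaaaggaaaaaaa

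The Hoxd13 window was the richest of the member windows in CpG dinucleotides, the sites of DNA methylation. It held 31 CpG and 74.4% G and C, and 5.19% of 32851 RefSeq promoter windows held as many CpG. Evx2 held 14 CpG, Hoxd12 held 10 and Hoxd8 held 6, which is also the median of all windows. Hoxd10 held 20 and Hoxd9 held 13, and the pair of RefSeq starts of Hoxd11 gave 2 and 20. TATAAA stood in 2 of the 8 member windows, those of Evx2 and Hoxd13, against 12.4% of all windows. In Hoxd13 the forward and the reverse-strand match overlap. CAATAAA stood in the Evx2 window (4.2% of all windows), and CCAAT in 4 member windows (33.8%). The TCF/LEF letters stood in the windows of Hoxd12 and Hoxd8 (7.48%), and TGACAG in that of Evx2 (15.9%). These matches describe letters, not bound sites. The Evx2 window lies inside the annotated gene, because longer predicted transcripts start further upstream.

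Hoxd13, the most posterior HoxD gene, had no count in either G0 library (0 and 0) and stood at 3229 and 2914 normalized counts in G2 replicates 1 and 2 (3072 ± 223, SD, n = 2). Normalized counts are counts divided by the authors' size factor of each library. Both G2 libraries stood far above both G0 libraries, and the G2 mean was at least 1030-fold higher than a floor of 3 counts per library, the upper limit that a count of 0 allows. The 7 genes together took 0.0227% of all counts in G2 replicate 1 and 0.0185% in G2 replicate 2. Evx2 was likewise at 0 in both G0 libraries, and read 132.1 and 121.2 normalized counts in the G2 libraries (126.7 ± 7.7, SD, n = 2), at least 42.3-fold higher. In bulk RNA, fewer cells that express a gene and less RNA per cell cannot be told apart.

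The other 5 genes had 0 counts in each G0 library as well, and their G2 levels were lower and less even. Hoxd11 read 217.8 and 17.6 normalized counts in G2 replicates 1 and 2 (117.7 ± 141.6, SD, n = 2). Hoxd9 read 138.2 and 39.1 (88.63 ± 70.05). Hoxd10 read 46.4 and 2.0, the latter from 2 counts and so under the floor. In these 3 genes the G2 libraries stood above the G0 libraries, with replicate 1 the higher. Hoxd8 read 12.1 and 4.9, from 12 and 5 counts. Hoxd12, which lies between Hoxd13 and Hoxd11, read 10.1 in G2 replicate 1 and 0 in G2 replicate 2. It is the 1 member whose groups overlap, since G2 replicate 2 equals the G0 libraries.

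**Figure D1:**
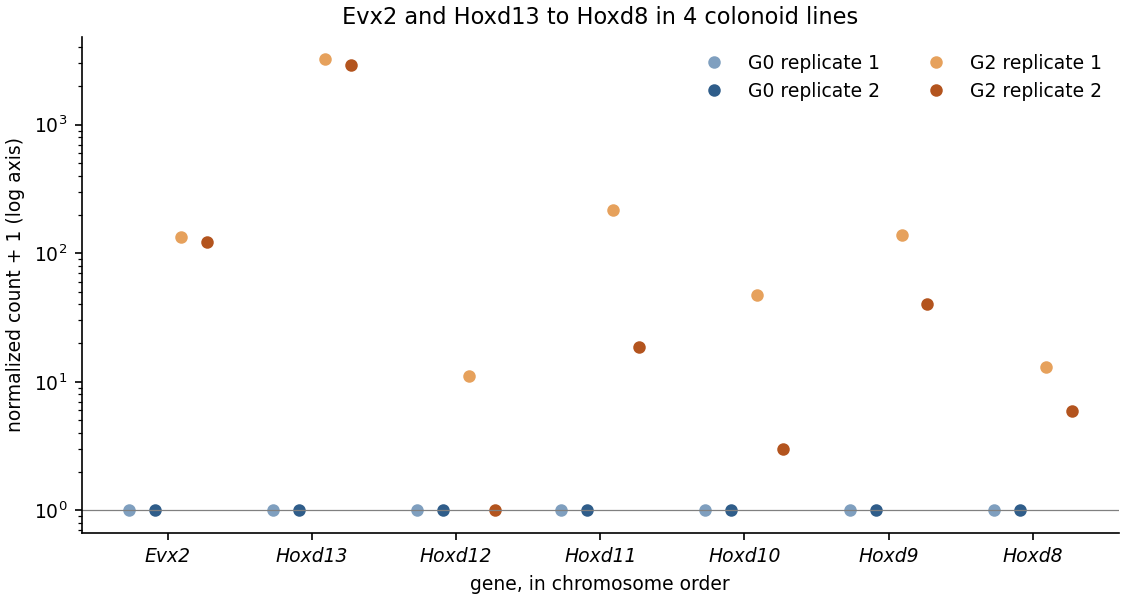
Normalized count plus 1 (log axis) of the 7 genes in chromosome order, with 1 point per library and a grey line at a count of 0. All 14 G0 points sit on the line, as does Hoxd12 in G2 replicate 2, while Hoxd13 stands at 3229 and 2914 in the G2 libraries.

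In all, 7 of 7 genes had no count in either G0 library, as did 2039 of the 16857 genes in the table. Among the 13981 genes tested there were 182 such genes, since a gene at 0 in G0 was tested only if its G2 level was high enough. In 6 of 7 both G2 libraries stood above both G0 libraries, an arrangement seen in 29.2% of the genes tested. These 6 include Hoxd10, with 2 counts in G2 replicate 2, under the floor. Evx2, Hoxd13, Hoxd11, Hoxd9 and Hoxd8 combined 0 in both G0 libraries with over 3 counts in both G2 libraries, as did 0.508% of the genes tested (71 genes). These counts restate how the genes were chosen. All 7 passed the minimum mean of 1 normalized count through the G2 libraries alone. Just beyond the members, the anterior HoxD genes Hoxd4 and Hoxd3 each had 0 counts in 3 libraries and 1 count in G2 replicate 1, a level not detectable against the floor. Hoxd1 was not analysed here.

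The labels were checked on Tert, which read 93.3 and 97.5 normalized counts in the G0 libraries and 0 and 1.0 in the G2 libraries (limma, log2 fold change -6.10, SE 0.54, adjusted p = 0.00128, 0.0909 to 0.158 with any 1 library left out and 0.0731 without the minimum mean). The libraries held 16545429 to 17901744 counts. The colonoid label was checked on 14 colon epithelium markers, all present, with summed levels of 161300 and 216800 in G0 and 186000 and 189800 in G2. Ddx3y, Kdm5d, Uty and Eif2s3y, genes of the Y chromosome, were at 0 in both G0 libraries and between 296.2 and 526.4 in the G2 libraries, so the group and the presence of Y-linked transcripts cannot be told apart.

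Levels of the members were compared with each other per kilobase of transcript. Hoxd13 was highest in both G2 libraries, at 1300 normalized counts per kilobase in replicate 1 and 1170 in replicate 2. Evx2 was next, at 92.5 and 84.9. In G2 replicate 1 the order went on with Hoxd11 and Hoxd9, at 64.7 each and not separable, then Hoxd10 at 25.5, Hoxd8 at 4.59 and Hoxd12 at 3.98. In G2 replicate 2 it went on with Hoxd9 at 18.3, Hoxd11 at 5.23, Hoxd8 at 1.86, Hoxd10 at 1.08 and Hoxd12 at 0. The order along the chromosome was therefore not a plain decline from Hoxd13, since Hoxd12 was at the bottom in both libraries. The lengths of Evx2, Hoxd11 and Hoxd8 depend on the transcript chosen. With a length of 4191 in place of 1428 bases, Evx2 came to 31.5 and 28.9, below Hoxd11 and Hoxd9 in replicate 1. With 1111 in place of 3367 bases, Hoxd11 came to 196 and 15.8, above Evx2 in replicate 1. With 557 in place of 2634 bases, Hoxd8 came to 21.7 and 8.77.

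**Figure D2:**
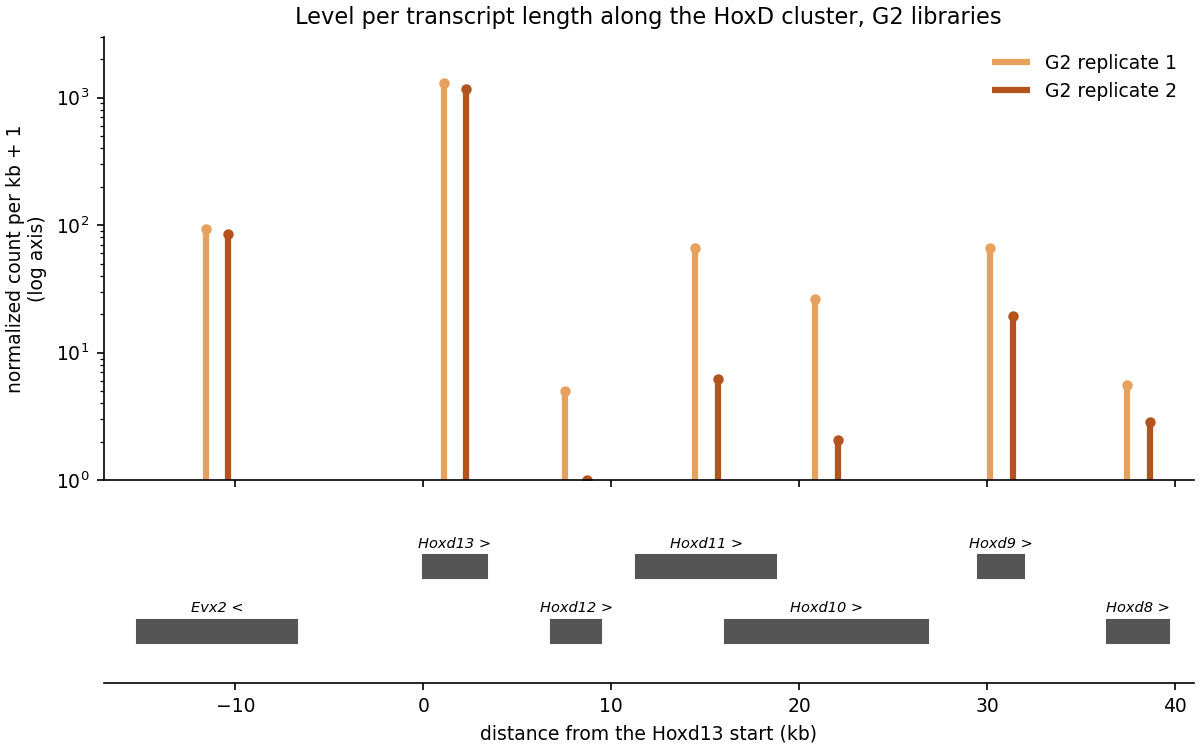
Normalized counts per kilobase of transcript plus 1 (log axis) in the G2 libraries, above a map of the annotated genes drawn to scale, with arrows for the direction of transcription and distances in kb from the Hoxd13 start. Hoxd13 stands at 1300 and 1170, and Hoxd12, its nearest Hox neighbour, at 3.98 and 0.

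Among the members, and with no correction for length, Hoxd13 took 85.3% of the 3754 counts in G2 replicate 1 and 94.0% of the 3170 counts in G2 replicate 2. Without it the 6 others summed to 552 counts in replicate 1 and 189 in replicate 2. Evx2 kept a similar share in both, 3.49% and 3.91%. Hoxd11 took 5.75% in replicate 1 and 0.568% in replicate 2.

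The G2 lines were close to each other in Hoxd13 and Evx2 and further apart in most of the other members. The ratio of replicate 1 to replicate 2 was 1.11 for Hoxd13 (95% exact counting interval 1.05 to 1.17) and 1.09 for Evx2 (0.846 to 1.4). It was 12.4 for Hoxd11 (7.65 to 21.3), 23.7 for Hoxd10 (6.21 to 202) and 3.53 for Hoxd9 (2.47 to 5.16). Hoxd8 gave 2.48 (0.812 to 8.97), an interval that includes equality, and Hoxd12 had only a lower bound of 2.31. These intervals cover counting error alone, not the spread between lines. As a scale for that spread, genes with a G2 mean within 2-fold of each member were taken. A difference as large as that of Hoxd11 was seen in 0.28% of 2142 such genes, of Hoxd10 in 1.06% of 1136, of Hoxd9 in 2.46% of 1828 and of Hoxd12 in 2.98% of 1109. The same shares were 75.0% of 2251 genes for Evx2, 46.5% of 2093 for Hoxd13 and 32.8% of 1148 for Hoxd8. All 7 members were higher in G2 replicate 1, as were 7140 of all 13981 genes tested and 6 of the 19 tested Hox genes outside the members. Among those 19, the most unequal was Hoxb8, with a 2.27-fold difference between the G2 lines. Hoxd11 and Hoxd10 overlap each other and the noncoding gene Gm28309 on the same strand, and Hoxd8 overlaps the antisense gene Hoxd3os1. The strand setting is not given in the sources used here, so reads could have been split among these genes.

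Posterior HoxD genes are also known from mesenchyme, and markers of other cell types were therefore read in the same libraries. Of 12 fibroblast and mesenchyme markers, 11 were in the table, and Dcn, Pdgfra and Foxf1 were at 0 in all 4 libraries. The 11 summed to 37.31 and 53.84 normalized counts in G0 and to 56.48 and 89.93 in G2. Much of this was Vim, at 31.4 and 41.6 in G0 and 33.3 and 38.1 in G2. Of 4 tested, only Col3a1 passed, rising from 0 and 0 to 7.1 and 6.8. Col1a1 went the other way, from 4.9 and 4.1 to 1.0 and 2.0, and did not pass. Twist1 read 1.0 and 5.1 in G0 and 13.1 and 39.1 in G2, and did not pass either. The 5 smooth muscle markers in the table summed to 12.76 and 11.17 in G0 and to 198.7 and 456.5 in G2, nearly all of it Acta2. Of these only Acta2 passed (limma, adjusted p = 0.00172). The 3 endothelial markers summed to 3.928 and 4.063 in G0 and to 48.41 and 46.92 in G2, nearly all of it Tek. Tek passed as well (limma, adjusted p = 0.00587). The 4 haematopoietic markers in the table summed to 1130 and 2111 in G0 and to 1170 and 1899 in G2, nearly all of it Cd68. Among them Ptprc, the pan-leukocyte marker, was at 0 in all 4 libraries, and Csf1r rose from 0 and 0 to 16.1 and 4.9 (limma, adjusted p = 0.0431). The 5 urothelial markers summed to 23.57 and 23.36 in G0 and to 46.39 and 16.62 in G2, so their groups overlapped. The 5 squamous markers summed to 24580 and 33900 in G0 and to 15650 and 5475 in G2, and moved both ways. Krt4 fell from 24042 and 33254 to 7674 and 2332, while Krt13 rose from 205.2 and 309.8 to 7043 and 2034 and Krt14 from 328.9 and 332.2 to 916.7 and 1107. Each of these keratin genes passed. What part any of these cells have in the levels of Evx2 and the HoxD genes was not tested.

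Outside the members, the genes with levels nearest to those of Hoxd13 were found by the distance of log2(normalized count + 1) over the 4 libraries, among 13980 genes. The nearest 8, in order, were Wif1 (distance 2.23), Krt34 (2.94), Sox17 (3.58), Kdm5d (3.6), Gsdmc2 (3.89), Eif2s3y (4.03), Gata5 (4.11) and Uty (4.23). Wif1, a secreted Wnt inhibitor, read 2.0 and 0 normalized counts in G0 and 1125 and 2095 in G2. Sox17, a transcription factor of the endoderm, read 2.9 and 3.0 in G0 and 967.1 and 1150 in G2. Gata5, a zinc finger transcription factor, read 1.0 and 9.1 in G0 and 778.6 and 1753 in G2. Krt34, a keratin gene, read 2.9 and 2.0 in G0 and 5328 and 1200 in G2. Kdm5d, Eif2s3y and Uty are Y-linked. Evx2, Hoxd13's neighbour on the chromosome, ranked 28th in this order, Hoxd9 ranked 52nd and Hoxd11 ranked 77th. Hoxd10 at rank 1740, Hoxd8 at rank 2412 and Hoxd12 at rank 8722 were far from it. The distance compares levels and not only the pattern over the groups, so members with lower G2 levels than Hoxd13 rank further away. This order rests on 4 libraries in 2 groups and is a description.

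The genes flanking the cluster were compared between groups with limma, with p-values adjusted over all 13981 genes, of which 10.5% passed the threshold of 0.05 and 5.93% did so with a higher level in G2. Within 1 Mb of the cluster 7 genes outside it were tested, and 1 passed (14.3%), which fell. That gene was Nfe2l2, the transcription factor of the oxidative stress response, 910 kb beyond the anterior end, at 12898 and 12270 normalized counts in G0 and 7469 and 6675 in G2 (log2 fold change -0.83, SE 0.14, adjusted p = 0.0145). The nearest genes did not pass. Lnpk, 73.5 kb from the Evx2 end, read 253.3 and 163.5 in G0 and 398.4 and 335.3 in G2 (adjusted p = 0.0864). Mtx2, 60.7 kb from the anterior end, read 614.7 and 544.5 in G0 and 596.0 and 553.2 in G2 (adjusted p = 0.973). Atp5g3, Atf2, Chn1 and Hnrnpa3 had log2 fold changes between -0.28 and 0.46. The median log2 fold change was -0.011 within 1 Mb, 0.048 over 57 genes within 5 Mb, 0.062 over 154 genes within 20 Mb and 0.024 over 1069 genes of chromosome 2, against 0.012 over all genes. The median within 1 Mb was 0.043 for G2 replicate 1 and -0.174 for G2 replicate 2, each against the G0 mean. When any 1 library was left out, the fit had a single residual degree of freedom and called 0 to 2 genes of all, and none of the genes outside the members named here. Their directions stayed, except for Chn1, Mtx2, Hnrnpa3 and Hoxa9. Without the minimum mean the fit called 225 genes and without the intensity trend 623, and Nfe2l2 was in neither set.

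**Figure D3:**
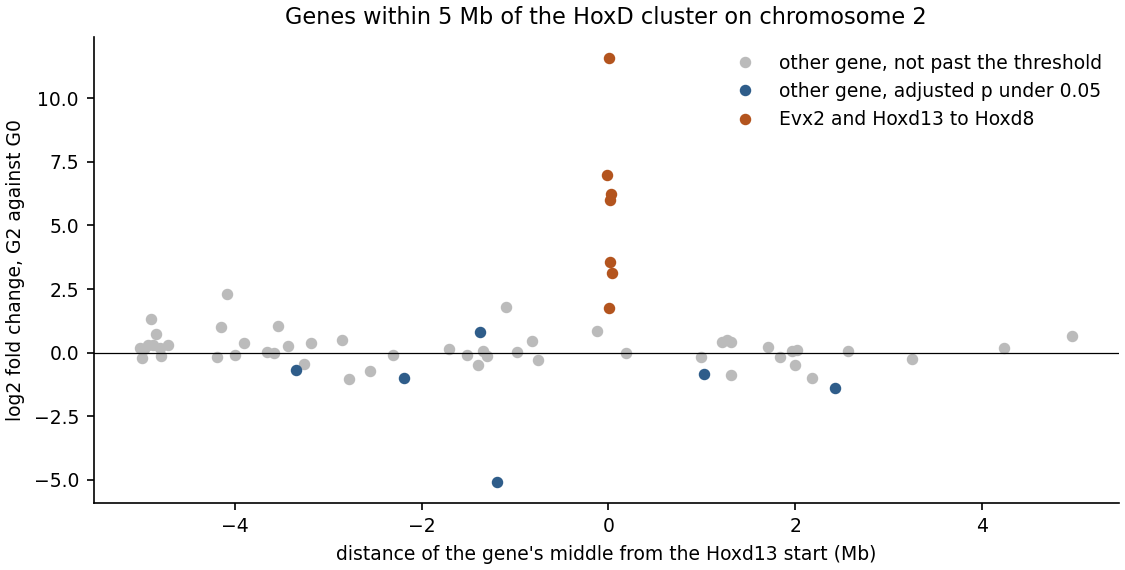
Log2 fold change of G2 against G0 for the tested genes within 5 Mb of the cluster, by distance of the gene's middle from the Hoxd13 start in Mb. The 7 members (orange) stand at the centre, and 6 of the 57 other genes (blue) passed the threshold, 1 of them higher in G2.

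The other Hox genes showed whether the members' paralogs, the genes of the same number in the other clusters, had the same pattern. The table holds 24, of which 19 were tested, and 2 rose and 3 fell (26.3%, against 10.5% of all genes), with a median log2 fold change of -0.11 against 0.01 over all genes. Both genes that rose belong to paralog group 13, that of Hoxd13. Hoxb13, a gene of the hindgut and prostate, read 229.8 and 486.6 normalized counts in G0 and 1376 and 1928 in G2 (log2 fold change 2.28, SE 0.35, adjusted p = 0.0095). Hoxa13 read 129.6 and 154.4 in G0 and 359.0 and 280.5 in G2 (1.16, SE 0.23, adjusted p = 0.0233). Unlike Hoxd13, both were therefore present in G0. Of the 5 tested genes of groups 8 to 11, none rose and 2 fell. Hoxb9 read 1350 and 1625 in G0 and 581.9 and 762.4 in G2 (log2 fold change -1.15, SE 0.18, adjusted p = 0.011). Hoxa11 read 752.1 and 780.1 in G0 and 326.8 and 443.8 in G2 (-1.01, SE 0.19, adjusted p = 0.0208). Their HoxD paralogs Hoxd9 and Hoxd11 had counts in the G2 libraries alone. Hoxa9 (adjusted p = 0.861), Hoxa10 (adjusted p = 0.658) and Hoxb8 (adjusted p = 0.0703) did not pass. Hoxa7, of the more anterior groups, also fell (log2 fold change -0.93, SE 0.19, adjusted p = 0.0271). None of these 5 calls held without the minimum mean, without the intensity trend or with any 1 library left out, where Hoxb13 had an adjusted p of 0.0942 to 0.271 and Hoxa13 of 0.187 to 0.233.

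The make-up of the Hox transcripts differed accordingly. HoxD genes gave 0% of all Hox counts in both G0 libraries and 30.9% and 24.5% in G2 replicates 1 and 2. HoxA genes gave 63.3% and 60.3% in G0 and 43.1% and 41.6% in G2, and HoxB genes 36.7% and 39.7% in G0 and 26.0% and 33.9% in G2. These are shares of 8464 and 9454 Hox counts in G0 and of 11733 and 12430 in G2. The total was larger in G2, where HoxD counts were added, so a lower share is not by itself a lower level. HoxC genes had at most 1 count. Paralog group 13 gave 4.32% and 6.67% of Hox counts in G0 and 42.0% and 42.2% in G2. Of this, Hoxd13 alone gave 0% in G0 and 27.3% and 24.0% of Hox counts in G2. Hoxd13 was chosen on this difference, so the HoxD share and much of the group 13 share restate that choice. Per kilobase, Hoxa9 was the highest Hox gene in both G0 libraries, at 604 and 691. Hoxd13 was the highest in both G2 libraries, at 1300 and 1170, above Hoxb13 at 624 and 874 and Hoxa9 at 638 and 615.

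**Figure D4:**
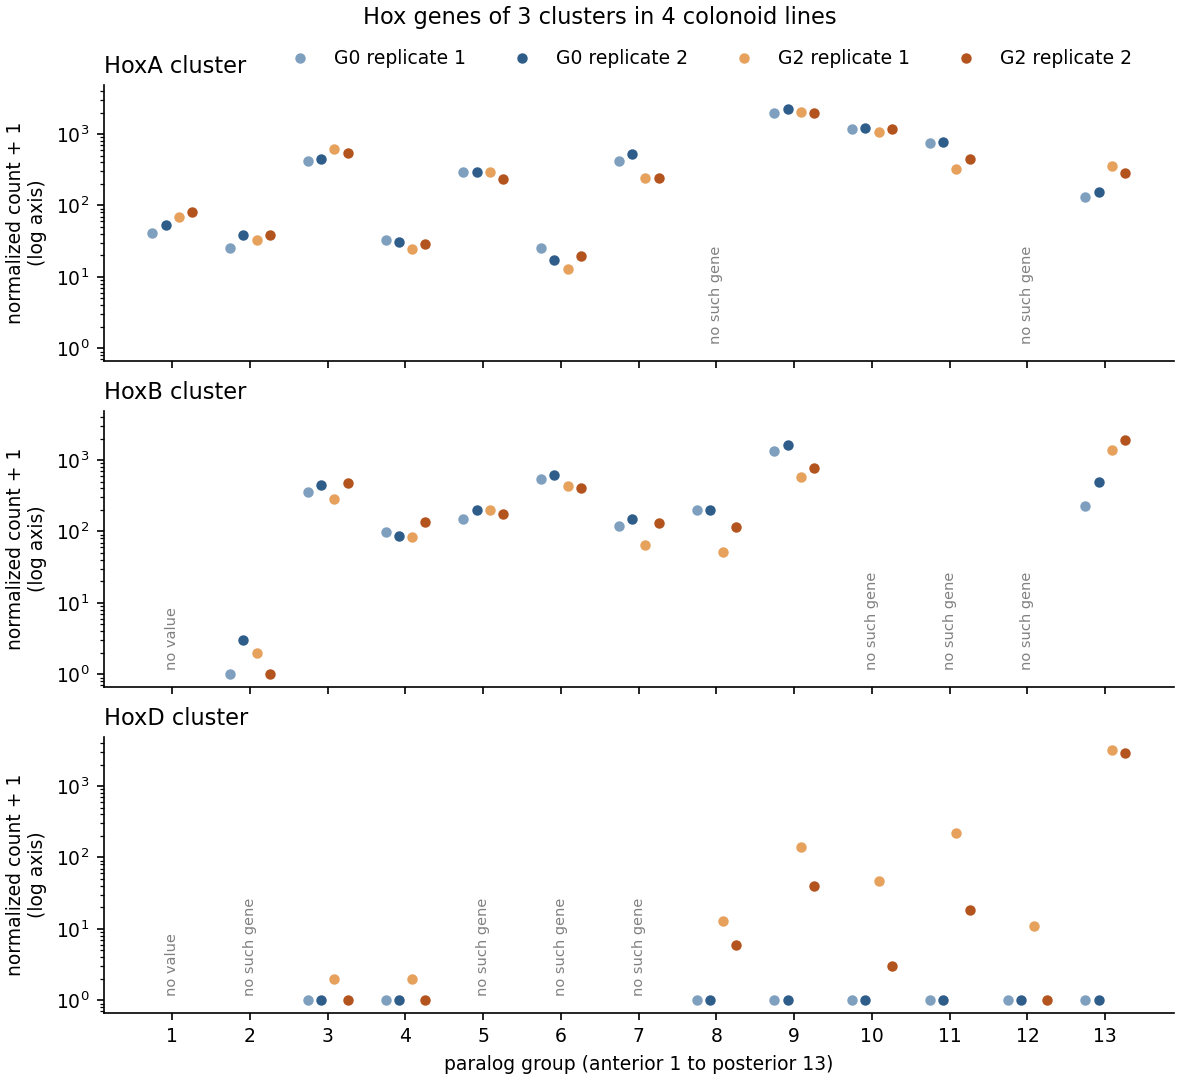
Normalized count plus 1 (log axis) of the Hox genes of the HoxA, HoxB and HoxD clusters by paralog group, with 1 point per library. In the bottom panel the 6 posterior HoxD genes are at 0 in G0. Where they have a HoxA or HoxB paralog, it has counts in all 4 libraries, and Hoxd12 has none.

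Evx1, the paralog of Evx2 that lies 52617 bases from Hoxa13 on chromosome 6, rose from 27.5 and 42.7 normalized counts in G0 to 381.2 and 281.5 in G2 (limma, log2 fold change 3.22, SE 0.32, adjusted p = 0.00208). Per kilobase it stood at 133 and 97.8 in G2, where Evx2 stood at 92.5 and 84.9. With the longer Evx2 transcript of 4191 bases, Evx2 stood at 31.5 and 28.9. Evx1 was 1 of 24 genes in the table on a list for the limb and genital buds, where posterior HoxD genes act in the embryo. Of 14 tested, 4 rose and 1 fell (35.7%, against 10.5% of all genes), with a median log2 fold change of 0.29. Shh, the signal whose limb expression depends on HoxD genes, was at 0 in both G0 libraries and read 24.2 and 48.9 in G2 (adjusted p = 0.00435). The bone morphogenetic protein gene Bmp7 rose from 112.9 and 156.4 to 399.4 and 401.7 (adjusted p = 0.00789). Tbx3, a T-box transcription factor, rose from 21.6 and 64.0 to 377.2 and 204.3 (adjusted p = 0.0196). Jag1, a Notch ligand, fell from 525.3 and 375.8 to 172.5 and 93.8 (adjusted p = 0.0181). With any 1 library left out these 5 genes kept their direction and 0 were called, and the adjusted p of Evx1 was 0.0942 to 0.158. Without the minimum mean 2 genes of the list were called, neither of them among these 5. Without the intensity trend Tbx3 (adjusted p = 0.114) and Jag1 (adjusted p = 0.105) did not pass.

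TALE homeodomain proteins bind DNA together with Hox proteins. Of 11 of their genes tested, 2 rose and 0 fell (18.2%, against 10.5% of all genes), and the median log2 fold change was 0.01. Meis1 rose from 2.0 and 2.0 normalized counts in G0 to 59.5 and 45.0 in G2 (limma, log2 fold change 4.14, SE 0.47, adjusted p = 0.00359). Meis2 rose from 2.9 and 6.1 to 66.6 and 67.4 (3.68, SE 0.47, adjusted p = 0.0052). Both G2 libraries were above both G0 libraries in each gene. Neither call held with any 1 library left out (adjusted p of 0.0987 to 0.158 for Meis1 and 0.105 to 0.168 for Meis2) or without the minimum mean (0.0532 and 0.0985).

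Among signals known to act on posterior Hox genes, 10 were tested, 0 rose and 1 fell, a share close to the 10.5% of all genes. That gene was Cdx2, the caudal-type homeobox factor of the intestine, at 2395 and 3199 normalized counts in G0 and 270.3 and 186.7 in G2 (limma, log2 fold change -3.62, SE 0.23, adjusted p = 0.00043). Cyp26b1, an enzyme that breaks down retinoic acid, read 18.7 and 54.9 in G0 and 6.1 and 4.9 in G2 (adjusted p = 0.053). With any 1 library left out, the adjusted p of Cdx2 was 0.0909 to 0.154, and without the minimum mean it was 0.0766.

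Polycomb genes, whose products are known to silence Hox clusters, and Trithorax genes, whose products maintain Hox expression, were read as 1 list. Of 47 tested, 0 rose and 1 fell (2.13%, against 10.5% of all genes), with a median log2 fold change of 0.04. An unadjusted p under 0.05 was found for 16 of them (34.0%), against 26.8% of all genes. By list this share was 50.0% of 14 Trithorax genes, 33.3% of 12 Polycomb 2 genes and 23.8% of 21 Polycomb 1 genes. The gene that fell was Epop, a Polycomb 2 accessory factor, at 1241 and 1537 normalized counts in G0 and 870.3 and 908.1 in G2 (limma, log2 fold change -0.64, SE 0.15, adjusted p = 0.0465). That call was lost with a pseudocount of 0.5, with scaling by library totals, without the minimum mean, without the intensity trend and with any 1 library left out (adjusted p of 0.169 to 0.308). Phf19, which brings Polycomb 2 to chromatin, read 158.1 and 193.0 in G0 and 111.9 and 77.2 in G2 (adjusted p = 0.0921). The Polycomb 1 genes with the smallest p were Cbx6 (adjusted p = 0.0868) and L3mbtl2 (adjusted p = 0.104). The Trithorax genes with the smallest p were the demethylase gene Kdm6a (adjusted p = 0.122) and the methyltransferase gene Kmt2c (adjusted p = 0.124). Of 10 genes of cohesin and CTCF, which shape the chromatin loops around the cluster, none passed in limma, and 0 had an unadjusted p under 0.05. Stag2 (adjusted p = 0.219) and Nipbl (adjusted p = 0.236) were the nearest to the threshold.

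**Figure D5:**
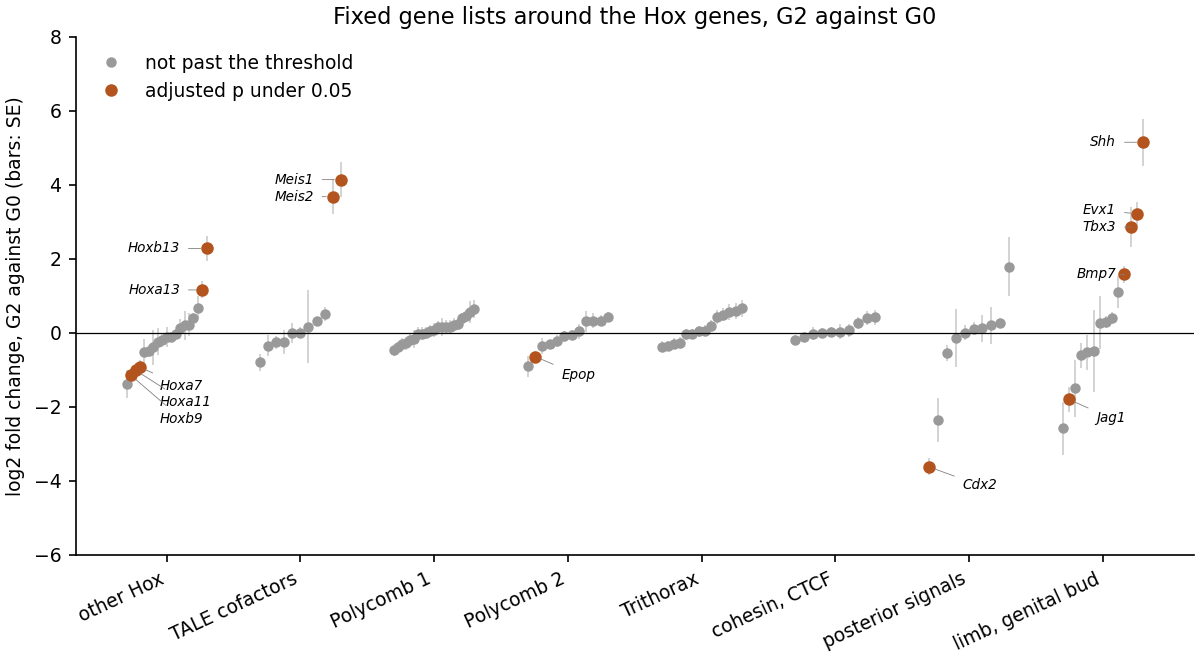
Log2 fold change of G2 against G0 for every tested gene of 8 lists, ordered within each list, with bars for the SE. Orange points passed the threshold and are named: Shh at 5.15 and Meis1 at 4.14 are the highest, Cdx2 at -3.62 the lowest.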

How the data were processed

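RNeasy-isolated RNA was made into libraries by a service (BGI), per the labels' protocols. The tools in the submitters' processing notes are DESeq2 1.32.0 in R 3.5.2, StringTie 2.1.1, HISAT2 2.1.0 and bcl2fastq 2.20.0, with the build mm10. The authors deposited 1 table of log2 values, whose shared floor of 6.508 in every library is that of a variance-stabilized count of 0. The transformation was inverted, and 1 size factor per library then gave whole numbers for 100% of values within 0.001. They are called counts here but may be rounded StringTie estimates.

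The G0 libraries held 17152994 and 17901744 counts, the G2 libraries 16545429 and 17156331. Genes whose mean reached 1 normalized count were tested with limma 3.58.1 in R 4.3.3 (eBayes with an intensity trend, log2(normalized count + 1), 2-sided, Benjamini-Hochberg over 13981 genes, threshold 0.05). This scale understates fold changes of low genes. The fit was also run on simulated counts with the same small spread set for every gene. That run cannot show how the fit does with the spread of these lines. P-values measure the spread between lines. Same-numbered replicates did not pair the samples. Ratios against 0 use a floor of 3 counts per library, and counting intervals are 95% and exact.

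Members and lists were chosen with earlier results of these data known. Genes named are the members, their neighbours within 1 Mb, called Hox genes and those of groups 8 to 13, up to 6 called genes per list or the 2 with the smallest p, the 8 nearest to Hoxd13, Tert, Y-linked genes and markers. Positions and promoters (found for 7 of 7 members) came from RefSeq (GRCm38.p6), in which 99.1% of 16857 symbols were found. Transcript lengths came from GENCODE M21, as the longest transcript paired with RefSeq, in place of RefSeq lengths. Alternatives covered the pseudocount, filter, scaling, trend, replicate block, single libraries and transcript length. Noncoding HoxD transcripts were not analysed here.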

Additional observations from a re-analysis of the deposited data

How the results depend on the processing

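The log2 fold changes of 24 called genes named outside the members kept their direction in every alternative. With the pseudocount at 5, the mean of at least 5 normalized counts or the values as deposited, all 24 calls remained. Over all genes the fit called 1467, but 225 with no filter on low values, 623 without the intensity trend and 0 to 2 with 1 library left out, where 1 residual degree of freedom remains and a lone library is assumed to vary like the other group. For the 4 fixed lists and the neighbours within 1 Mb, leaving out any 1 library gave 0 calls each. With no filter, 0 neighbours, 0 other Hox genes, 0 Polycomb and Trithorax genes and 0 cofactors were called, and 2 limb and genital bud genes. Without the trend, 0 neighbours, 0 other Hox genes and 0 Polycomb and Trithorax genes were called, and the last count was 0 also with a pseudocount of 0.5 and with scaling by library totals. Within 0.5 Mb of the cluster 0 genes were called, and 3 within 2 Mb. The cause of these changes was not tested. The median log2 fold change within 1 Mb was -0.174 to 0.043 with 1 library left out. Both G2 libraries stood above G0 in 6 members, and in 7 without G2 replicate 2. The ratio to the floor stayed at 972 to 1080 for Hoxd13 and at 40.4 to 44.2 for Evx2 in all alternatives. Without G2 replicate 1 it dropped from 39.3 to 5.87 for Hoxd11, from 29.6 to 13 for Hoxd9, from 8.07 to 0.652 for Hoxd10, from 2.83 to 1.63 for Hoxd8 and from 1.68 to 0 for Hoxd12. Without G2 replicate 2 these ratios were 72.7, 46.1, 15.5, 4.04 and 3.37. Under either other transcript length, 11 of 14 ranks stayed. Log2 fold changes near 0 changed sign: with 1 library left out, Chn1 ranged from -0.46 to 0.54, Mtx2 from -0.1 to 0.08, Hnrnpa3 from -0.35 to 0.0 and Hoxa9 from -0.14 to 0.05, and with total scaling Mtx2 was 0.05 and Hoxa9 was 0.02.

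Same-numbered lines share only a number, with a correlation of deviations of 0.109 over 2 pairs. The fit with a replicate block called 3503 genes, among them 3 neighbours, 14 Polycomb and Trithorax genes and 4 cofactors. At this depth of about 3 counts per library as the floor, levels such as those of Hoxd12, Hoxd10 and Hoxd8 in G2 replicate 2 are at or near the limit of detection.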
